A study of Rattus norvegicus with 16 samples.

Results

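Rbp4 carries retinol, and Crabp2, Aldh1a1, Rara and Rxra carry, make and read the retinoic acid formed from it. The transcripts of all 5 genes were followed in the aging rat aorta. Every probe set whose platform gene symbol was one of these 5 genes was taken, which gave 9 of the 7006 probe sets with 1 gene symbol, or 5 of 4736 genes. The genes were chosen with results of these arrays known, among them the difference of Crabp2 between 28 and 3 months. That comparison is therefore given for the members as a description, and calls counted in it are no evidence about them. The samples were 16 pieces of descending thoracic aorta from rats aged 3, 6, 15 and 28 months, 4 animals and 4 arrays per age (an Affymetrix rat genome array, 1 rat per array). The labels give no strain, sex, diet or treatment, and whether surrounding fat was trimmed off is not stated. The title of the study speaks of a vessel disease that progresses with age, and the comparison of ages addresses which transcripts change with it.

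Retinol, the alcohol form of vitamin A, travels in blood bound to retinol binding protein, which Rbp4 encodes and which liver and fat cells secrete. Cells oxidise retinol to retinal and then, with aldehyde dehydrogenases such as that of Aldh1a1, to retinoic acid. The carrier encoded by Crabp2 hands retinoic acid to nuclear receptors, where a retinoic acid receptor (Rara) pairs with a retinoid X receptor (Rxra) on DNA and changes the transcription of target genes. In the vessel wall, retinoic acid is known for its effects on the growth and contractile state of smooth muscle cells.

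Values are MAS5 signals, a linear brightness per probe set, and differences are between means of log2(signal + 16) with their standard error (SE), older minus younger. This scale understates the change of dim probe sets. A filter on dim probe sets left 5250 of 8799. Median signals lay between 223.5 and 267.7 on the 16 arrays, and correlations between arrays lay between 0.869 and 0.966. At each age, replicates 1 and 2 come from hybridisation day 1 and the other pair from day 2. The beta-actin ratio of 3' over 5' signal, higher in degraded RNA, reached 3.82 on replicate 4 at 28 months. It was 3.20 on replicate 4 at 15 months and stayed between 1.24 and 1.77 elsewhere. All 9 measured smooth muscle markers passed the filter and none was at 0 on all 4 arrays of an age. Fat cell transcripts varied, and a fat score was formed as the average log2 level of 23 adipocyte and brown fat genes, none of them a member. In order of age, from 3 to 28 months, it was 12.77 ± 0.54, 12.87 ± 0.73, 11.56 ± 1.71 and 11.10 ± 0.66 (SD, n = 4 each).

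At 28 months the 2 carriers lay apart from 3 months in opposite directions. The retinoic acid carrier Crabp2 was 5.80-fold higher, and the retinol carrier Rbp4 was 3.30-fold lower on its brightest probe set, with no overlap between the 4 arrays of each age in either case. The enzyme Aldh1a1 and the receptors Rara (brightest probe set) and Rxra differed by -0.11, 0.07 and 0.06 on the log2 scale. Of the 9 probe sets, 8 passed the filter on low values. Of these, 1 was called higher and 0 lower at 28 against 3 months (limma, adjusted p under 0.05), where 1.28% of all probe sets tested were called. With the replicate block 1 was called higher and 1 lower (Rbp4 K03045cds_s_at), against 12.2% of all probe sets. The arrays did not overlap on 3 of the 8, 1 higher and 2 lower, as on 17.7% of all probe sets (10.4% higher and 7.3% lower). The member called, Crabp2, passed the filter through the older ages, and its difference was 2.30 to 2.96 with each array left out in turn. The call was lost without replicate 1, 2 or 3 at 28 months or replicate 1 or 2 at 3 months. Since this comparison chose the members, nothing is read from these counts.

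**Figure D1:**
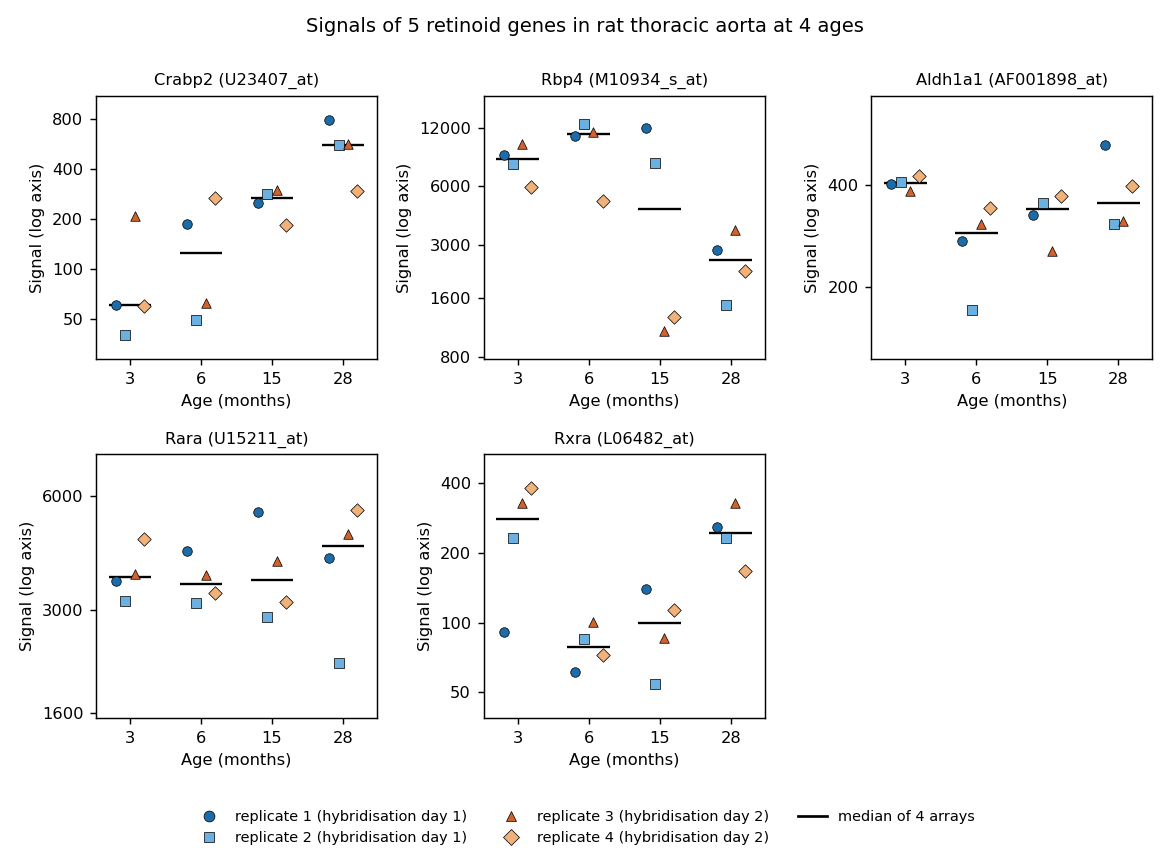
MAS5 signal (log axis) against age in months for the brightest probe set of each of the 5 genes, 1 point per array and a bar marking the centre of each age (n = 4). Crabp2 reached 296 to 791 at 28 months, Rbp4 stood at 1486 to 3564 there, and Rxra was lower at 6 months than at 28 months on every array.

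Crabp2 (cellular retinoic acid binding protein) was read by 1 probe set, U23407_at. Its promoter is shown because Crabp2 had the largest difference among the members at 28 against 3 months. The 300 bases run from 250 before to 50 after the start of the gene (RefSeq, GRCr8, chr2:175714612-175714911, plus strand), 5' to 3', with TATAAA and GGGCGG in capitals:
Crabp2: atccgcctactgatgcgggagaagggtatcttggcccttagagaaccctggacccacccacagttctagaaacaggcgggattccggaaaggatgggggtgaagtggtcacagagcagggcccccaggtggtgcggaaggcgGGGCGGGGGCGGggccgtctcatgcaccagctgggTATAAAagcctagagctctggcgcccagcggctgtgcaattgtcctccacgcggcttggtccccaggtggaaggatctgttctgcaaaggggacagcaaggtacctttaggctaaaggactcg
The promoter held TATAAA, the letters of a TATA box, 73 bases before the start. It held GGGCGG, the letters of a GC box, 108 and 102 bases before it, side by side. Either strand was searched. These letters occur in 14.2% and 33.1% of the 33469 rat promoters in the table. The unit that retinoic acid receptors bind in pairs was searched in 3 spellings, none of which matched in this window. These were AGGTCA, found in 16.2% of all promoters, then AGTTCA, found in 14.5%, and GGGTCA, found in 13.8%. A match describes letters and shows no binding.

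The signals of Crabp2 at 3 months were 60.6, 40.1, 209.8 and 60.4, and at 6 months 186, 49.4, 62.4 and 267 (replicates 1 to 4). They were 251.1, 281, 299.6 and 184 at 15 months and 791, 558, 566 and 296 at 28 months. All 4 arrays at 28 months lay above every array at 3 and at 6 months, and the 15 and 28 month arrays overlapped only where replicate 3 at 15 months exceeded replicate 4 at 28 months. From 3 to 28 months the mean log2 values were 6.54 ± 0.88, 7.03 ± 1.03, 8.06 ± 0.29 and 9.07 ± 0.57 (SD, n = 4 each). The means at 3 and 6 months are under the filter's limit of 7.31, so the size of the difference from those ages is uncertain. The difference was 2.54 (SE 0.50) at 28 against 3 months. Within the 4 hybridisation runs, each with 1 array of every age, it was 3.40, 3.36, 1.36 and 2.03, so every run had the older rat higher.

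Between neighbouring ages the steps of Crabp2 were smaller and did not pass the test. At 15 against 6 months, which share no array with the comparison that chose the members, the difference was 1.02 (SE 0.50, 95% interval -0.03 to 2.08, higher in 3 of 4 runs, limma adjusted p = 0.605). At 15 against 3 months it was 1.52 (SE 0.50, higher in 4 of 4 runs, adjusted p = 0.546). At 28 against 15 months it was 1.02 (SE 0.50, higher in 4 of 4 runs, adjusted p = 0.967), and at 6 against 3 months 0.50 (SE 0.50, adjusted p = 1.00). The last 3 of these share arrays with the comparison that chose the members. The means of Crabp2 at 3 and 6 months (6.54 and 7.03) are under the filter's limit of 7.31, so it passed through the older ages. Its differences between 3 or 6 months and 15 or 28 months, with their interval and p, are therefore given as a description. The order of the mean levels was 28, 15, 6 and 3 months from high to low, and no neighbouring pair in it passed the test after adjustment. At 28 against 6 months, a comparison added after the values were seen and given with no test, Crabp2 was 4.11-fold higher (log2 difference 2.04, SE 0.50).

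The pattern of Crabp2 over the 16 arrays was most like that of Gja5, a gap junction protein of arterial endothelium (Pearson r = 0.92). Gstp1, a glutathione transferase, Cyb5r3, a cytochrome b5 reductase, and Icam1, an adhesion molecule for leukocytes, followed at 0.85, 0.84 and 0.84. These were picked as the highest of all probe sets with 1 symbol and have no test. After the age means were taken out, r was 0.80 for Gja5 and 0.42, 0.37 and 0.52 for Gstp1, Cyb5r3 and Icam1. These come from the same arrays that picked the genes.

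Rbp4 (retinol binding protein) was read by 3 probe sets. Its promoter is shown as that of the member with the lower level in old rats (RefSeq, GRCr8, chr1:245313502-245313801, minus strand, 5' to 3', with TATAAA and GGGCGG or its reverse complement CCGCCC in capitals):
Rbp4: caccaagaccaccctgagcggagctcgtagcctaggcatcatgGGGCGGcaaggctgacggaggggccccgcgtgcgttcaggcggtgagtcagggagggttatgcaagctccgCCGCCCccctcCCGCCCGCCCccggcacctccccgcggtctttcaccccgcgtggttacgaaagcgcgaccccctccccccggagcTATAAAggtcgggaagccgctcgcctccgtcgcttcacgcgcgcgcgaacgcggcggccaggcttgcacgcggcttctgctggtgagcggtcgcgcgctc
The promoter held TATAAA 50 bases before the start. GGGCGG stood 207 bases before the start, and on the opposite strand it stood 136, 125 and 121 bases before it, where the last pair overlap. None of the 3 spellings of the receptor unit was found here. Among the 5 members, 2 promoters held TATAAA (Crabp2 and Rbp4), 4 held GGGCGG (all but Aldh1a1), 2 held GGGTCA (Aldh1a1 and Rara) and 0 held AGGTCA. The windows of Aldh1a1 (from base 227537370) and Rara (from base 84411217) lie inside genes that start at 227426939 and 84379780. Their matches are therefore not at the outer start of the gene.

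On its brightest probe set, M10934_s_at, Rbp4 had signals of 8668, 7855, 9906 and 5932 at 3 months and of 10814, 12517, 11410 and 5039 at 6 months. At 15 months the signals were 11965, 7903, 1089 and 1288, and at 28 months 2835, 1486, 3564 and 2213. All 28 month arrays lay below all 3 and 6 month arrays, and the 15 month rats split, with replicates 1 and 2 at the level of the young and replicates 3 and 4 below every 28 month array. The mean log2 values were 12.96 ± 0.31, 13.20 ± 0.60, 11.74 ± 1.76 and 11.24 ± 0.54 at 3, 6, 15 and 28 months (SD, n = 4 each). The difference at 28 against 3 months was -1.72 (SE 0.62), and within the 4 runs it was -1.61, -2.39, -1.47 and -1.42. At 28 against 6 months, added after the values were seen, it was -1.96 (SE 0.62).

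The second probe set, K03045cds_s_at, ran with the first (r = 0.96 over 16 arrays). Its signals at 28 months were 1526, 1643, 2397 and 711, against 7744, 6160, 8512 and 2878 at 3 months, again without overlap. The difference was -2.01 (SE 0.82), lower in 4 of 4 runs. The third, K03045cds_r_at, was dimmer, with 121, 227, 189 and 73.2 at 28 months, against 1987, 345, 2170 and 189 at 3 months. It differed by -2.26 (SE 1.11), and the ages overlapped because replicate 4 at 3 months stood at 189. Its mean at 28 months, 7.296, is under the filter's limit, so the size of this difference is uncertain. All 3 probe sets read 1 gene, and all 3 gave the same direction in every run at 28 against 3 months.

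In the comparisons that were tested, Rbp4 did not pass. At 15 against 6 months the 3 probe sets differed by -1.46 (SE 0.62), -1.58 (SE 0.82) and -1.61 (SE 1.11), with limma adjusted p = 0.605, 0.605 and 0.637. In the runs of day 2 the brightest probe set differed by -3.37 and -1.95 there, and in those of day 1 by 0.15 and -0.66, so the mean rests on day 2. At 15 against 3 months its difference was -1.22 (SE 0.62, lower in 2 of 4 runs, adjusted p = 0.703). At 28 against 15 months it was -0.50 (SE 0.62, adjusted p = 0.967), with -2.07 and -2.40 in the runs of day 1 and 1.70 and 0.77 in those of day 2. The order of the means from high to low was 6, 3, 15 and 28 months, and no neighbouring pair in it passed the test after adjustment.

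**Figure D2:**
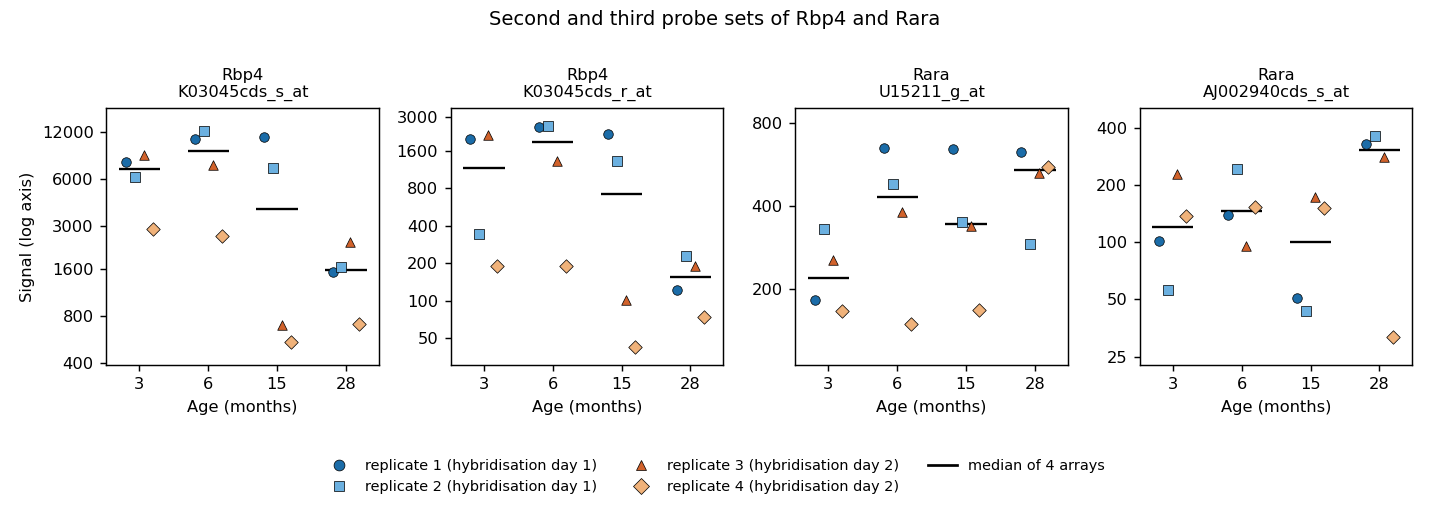
MAS5 signal (log axis) against age in months for the dimmer probe sets of Rbp4 (K03045cds_s_at, K03045cds_r_at) and Rara (U15211_g_at, AJ002940cds_s_at), 1 point per array and a bar marking the centre of each age (n = 4). Both Rbp4 probe sets split at 15 months into 2 high and 2 low arrays, and Rara AJ002940cds_s_at had 1 array at 31.7 at 28 months below the other 3 at 280 to 362.

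The level of Rbp4 followed the fat score over the 16 arrays. Pearson r was 0.948 for M10934_s_at, 0.995 for K03045cds_s_at and 0.931 for K03045cds_r_at, and Spearman's rho was 0.915, 0.974 and 0.968 (permutation p = 1e-05 each, the smallest that 100000 permutations can give, adjusted p = 3e-05 over 9 relations, 2-sided). Without the 2 arrays farthest from the median score, replicates 4 at 15 and at 28 months, r was 0.952, 0.993 and 0.907. After the age means were taken out it was 0.909, 0.995 and 0.918. Within day 1 r was 0.957, 0.991 and 0.913, and within day 2 it was 0.965, 0.996 and 0.915 (8 arrays each). The relation thus held within either day. The deviations were pooled over the 4 ages, and the relation within a single age was not tested. At 28 months replicates 1 to 4 had scores of 11.21, 11.35, 11.68 and 10.16. M10934_s_at stood at 2835, 1486, 3564 and 2213 on these arrays, so its order was not that of the score.

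The fat score itself was lower by 1.67 at 28 than at 3 months, without overlap (2-sided exact permutation p = 0.0286, which is the smallest possible with 4 arrays per age). At 15 against 3 months it differed by -1.21 (exact permutation p = 0.314), where replicates 1 and 2 had 13.17 and 12.89 and replicates 3 and 4 had 10.19 and 9.98, the same split as in Rbp4. All 17 measured adipocyte markers and all 6 tested brown fat markers were lower at 28 than at 3 months, with medians of -1.65 and -1.82. Of these 23, 1 adipocyte marker passed the test, and 8 adipocyte and 3 brown fat markers passed with the replicate block. Beside these stand 1.28% of all probe sets tested that passed and 12.2% that passed with the block, while 55.2% were higher. The summed signal of the adipocyte markers was 41157 to 105622 at 28 months, against 113556 to 279251 at 3 months, and that of the 7 measured brown fat markers 14406 to 46540, against 65182 to 132860. No marker was at 0 on all 4 arrays of an age. When the fat score entered as a covariate, Rbp4 differed at 28 against 3 months by -0.26, 0.13 and 0.44 on the 3 probe sets. In tissue, fewer cells of a type and less RNA per cell cannot be told apart.

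The genes most like Rbp4 over the arrays were Acly, the ATP citrate lyase of fat synthesis, on 2 probe sets (r = 0.98 and 0.97), Pc, pyruvate carboxylase (0.98), and Plaat3, a phospholipase of adipocytes (0.97). Acly is itself 1 of the genes of the fat score. Crabp2 had r = -0.50 with the fat score (permutation p = 0.0477, adjusted p = 0.107, rho = -0.55, adjusted p = 0.0662), which did not pass. After the age means were taken out r was 0.05, and it was -0.77 on day 1 (exact permutation p = 0.0205, 8 arrays) and -0.39 on day 2 (exact permutation p = 0.336, 8 arrays). When the fat score entered as a covariate, Crabp2 differed at 28 against 3 months by 2.59. In that fit 0 members were called (limma, adjusted p under 0.05), Crabp2 included, beside 0.724% of all probe sets. The other 5 relations, those of Aldh1a1, Rara and Rxra, had adjusted p = 0.683 to 0.745.

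**Figure D3:**
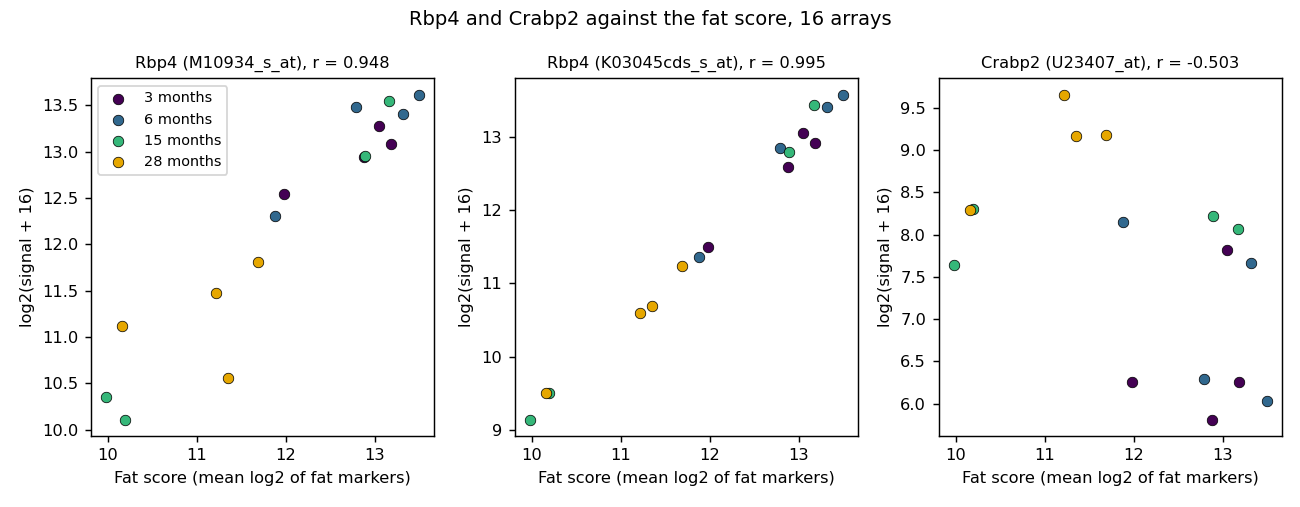
log2(signal + 16) of Rbp4 and of Crabp2 against the fat score (mean log2 value of 23 adipocyte and brown fat genes), 1 point per array, coloured by age in months. Rbp4 K03045cds_s_at lay along a line over all ages (r = 0.995), and the Crabp2 points spread more widely (r = -0.503).

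Aldh1a1 (retinal dehydrogenase 1) makes retinoic acid from retinal. Its probe set AF001898_at had signals of 404, 411, 386 and 427 at 3 months, 273, 172, 307 and 344 at 6 months, 327, 356, 257 and 371 at 15 months, and 526, 307, 313 and 399 at 28 months. The 3 month rats were close to each other, and all 6 and all 15 month arrays lay below all of them. The 28 month arrays spread from below to above the 3 month level. At 6 against 3 months the difference was -0.58 (SE 0.23, lower in 4 of 4 runs) and at 15 against 3 months -0.31 (SE 0.23, lower in 4 of 4 runs). Neither passed (limma adjusted p = 1.00 and 0.735). At 28 against 3 months it was -0.11 (SE 0.23, 95% interval -0.59 to 0.38), at 15 against 6 months 0.27 (adjusted p = 0.685) and at 28 against 15 months 0.21 (adjusted p = 0.967). The SD at 3 months, 0.06, was the smallest of the 4 ages, against 0.41 at 6 months. The most similar patterns were those of Cpz, a carboxypeptidase (r = 0.82), Sostdc1, a BMP and Wnt antagonist (0.81), Ncam1, a neural cell adhesion molecule (0.77), and Gpc3, a glypican (0.76).

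Rara (retinoic acid receptor alpha) was read by 3 probe sets that did not move together. The correlation over 16 arrays was 0.43 between U15211_at and U15211_g_at, -0.31 between U15211_at and AJ002940cds_s_at, and -0.09 between the other pair. The brightest, U15211_at, had signals of 3579, 3160, 3732 and 4598 at 3 months, 4295, 3114, 3703 and 3326 at 6 months, 5426, 2870, 4036 and 3145 at 15 months, and 4099, 2169, 4753 and 5512 at 28 months. The 4 ages overlapped throughout. The difference at 28 against 3 months was 0.07 (SE 0.27, 95% interval -0.50 to 0.63), and those of 6 against 3, 15 against 6 and 28 against 15 months were -0.06, 0.07 and 0.06 (adjusted p = 1.00, 0.943 and 0.988). The patterns most like it were those of Cacna1a (r = 0.81), a calcium channel subunit, Gabbr1 (0.81), a GABA receptor subunit, Tuba1b (0.80), a tubulin, and Ugt2b (0.80), a glucuronosyltransferase.

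The dimmer Rara probe set U15211_g_at had 624, 291, 525 and 552 at 28 months, against 183, 331, 255 and 167 at 3 months, and replicate 2 of either age made the groups overlap. Its difference was 1.04 (SE 0.43), which is 2.05-fold, and it did not pass at 6 against 3 (0.66, SE 0.43), 15 against 3 (0.55), 15 against 6 (-0.11) or 28 against 15 months (0.49), with limma adjusted p = 0.735 to 1.00. The third probe set, AJ002940cds_s_at, had a mean of 7.21 over all arrays, just under the filter at 7.31, and was not tested. It had 327, 362, 280 and 31.7 at 28 months, against 102, 56.2, 228 and 138 at 3 months. Its 28 month rats were above the highest 3 month rat except replicate 4, the lowest of all 16 arrays and 1 of the pair with a high beta-actin ratio. The part of that ratio in its value was not tested.

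Rxra (retinoid X receptor alpha) is the partner that retinoic acid receptors and several other nuclear receptors need to bind DNA. Its probe set L06482_at was dim, with a mean of 7.32 just inside the filter. The signals were 90.6, 233, 330.2 and 381 at 3 months, 61.1, 85.1, 100.6 and 72.4 at 6 months, 140.2, 54.0, 85.4 and 114 at 15 months, and 259, 231, 328 and 167 at 28 months. The levels at 6 and 15 months were low, and all 28 month arrays lay above all arrays of both these ages. The 3 month arrays overlapped with both, since replicate 1 was at 90.6. The mean log2 values were 7.94 ± 0.85, 6.56 ± 0.26, 6.77 ± 0.50 and 7.997 ± 0.38 at 3, 6, 15 and 28 months (SD, n = 4 each), so the means at 6 and 15 months are under the filter's limit. The probe set thus passed the filter through its 3 and 28 month arrays. Its differences between these ages and 6 or 15 months, with their separation and unadjusted p, are given as a description.

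None of the tests on Rxra was passed after adjustment. The difference was -1.38 at 6 against 3 months (SE 0.40, lower in 4 of 4 runs, unadjusted p = 0.00326, limma adjusted p = 1.00) and -1.17 at 15 against 3 months (SE 0.40, lower in 3 of 4 runs, adjusted p = 0.578). At 28 against 15 months it was 1.22 (SE 0.40, higher in 4 of 4 runs, unadjusted p = 0.0073, adjusted p = 0.967), and at 15 against 6 months 0.21 (SE 0.40, adjusted p = 0.865). At 28 against 6 months, added after the values were seen, it was 1.43 (SE 0.40), and at 28 against 3 months 0.06 (SE 0.40, 95% interval -0.79 to 0.90), which runs gave as 1.37, -0.01, -0.01 and -1.12. The patterns most like Rxra were those of Arrb2, an arrestin (r = 0.85), Pcolce, an enhancer of procollagen processing (0.80), Rnase1, a pancreatic-type ribonuclease (0.80), and Pitx3, a homeobox factor (0.79).

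**Figure D4:**
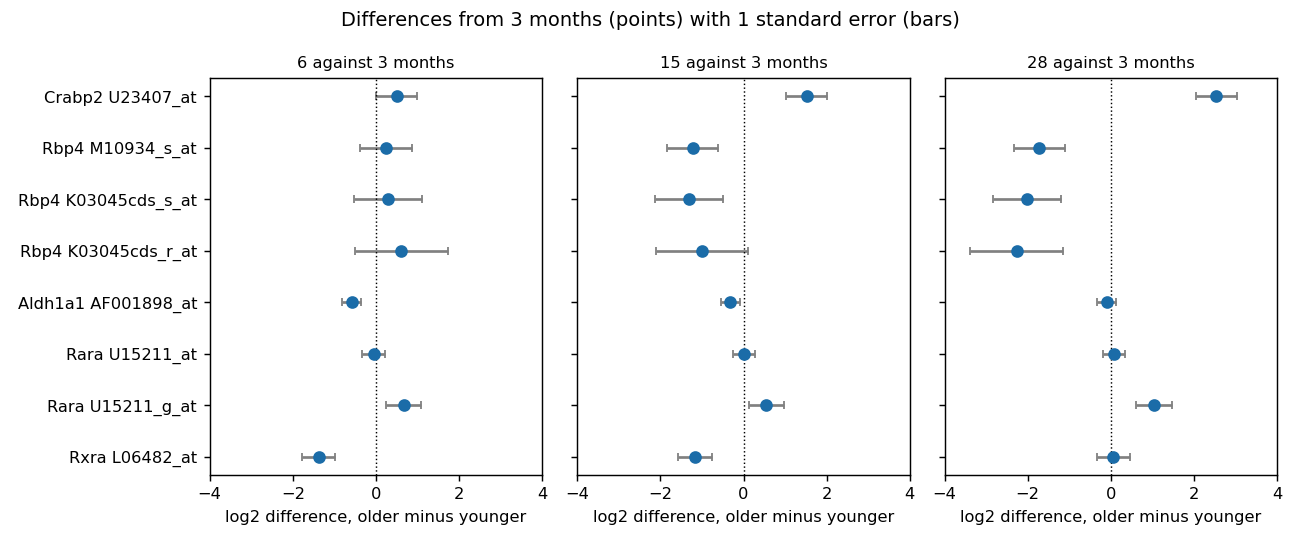
Log2 differences, older minus younger, of the 8 tested member probe sets, with bars of 1 SE. The comparisons are 6, 15 and 28 against 3 months. At 28 against 3 months Crabp2 stood at 2.54 and the 3 Rbp4 probe sets at -1.72 to -2.26. Rxra stood at -1.38 at 6 against 3 months and at -1.17 at 15 against 3 months.

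In the 4 tested comparisons, limma called 0 of the 8 tested member probe sets. At 6 against 3 months 2 had an unadjusted p under 0.05 (Aldh1a1 and Rxra), as had 2.88% of all probe sets, and 0% were called. At 15 against 3 months it was 2 (Crabp2 and Rxra), beside 7.09% of all probe sets and 0.0952% called. At 15 against 6 months it was 1 (Rbp4 M10934_s_at), beside 7.49% and 0.019% called. At 28 against 15 months it was 1 (Rxra), beside 3.52% and 0% called. The replicate block also called 0 members in each of these 4 comparisons, and 0%, 0.19%, 0.019% and 0% of all probe sets. The arrays of the 2 ages did not overlap on 1 member at 6 against 3 months and 1 at 15 against 3 months (Aldh1a1 lower in both), 0 at 15 against 6 months and 1 at 28 against 15 months (Rxra higher), beside 1.6%, 2.97%, 2.46% and 1.96% of all probe sets. Crabp2 and Rxra passed the filter through the ages where they are high, so their part in these counts is no evidence about them.

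The members were set beside the other genes of the pathway. The lists of carriers, uptake and storage, oxidation and clearance, receptors, receptor partners, coregulators and retinoic acid responsive genes named 86 genes besides the members, of which 37 were on the array and 24 passed the filter. At 28 against 3 months 12 of the 24 were higher and 12 lower, with a median difference of -0.04, where 55.2% of all probe sets tested were higher and their median was 0.06. Of the 24, 1 passed the test (4.17%), namely Icam1, which was higher, beside 1.28% of all probe sets tested. With the replicate block 2 passed as higher and 4 as lower. The gene lists were chosen with earlier results of these data known, so nothing is read from these counts. Of the core lists (carriers, uptake, oxidation and receptors), 8 genes passed the filter, 2 higher and 6 lower, with 0 called by limma, 4 at an unadjusted p under 0.05 and 3 called lower with the block. Of all probe sets tested, 22.4% had an unadjusted p under 0.05 and 12.2% were called with the block.

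Among the carriers, Fabp5, a fatty acid binding protein that also carries retinoic acid, had signals of 1379, 877, 2016 and 562 at 28 months, against 7423, 5352, 7371 and 2268 at 3 months. The ages did not overlap, and the difference was -2.21 (SE 0.73, limma adjusted p = 0.125, and 0.0234 with the replicate block). Its direction at 28 months was that of Rbp4 and opposite to that of Crabp2. At 15 months replicates 1 to 4 of Fabp5 stood at 5544, 4256, 539 and 579, the same split as in Rbp4 and the fat score. The relation of Fabp5 to the fat score was not tested. The other measured carriers, Rbp2, Crabp1 and Ttr, did not pass the filter.

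In uptake and storage, Dgat1, which can esterify retinol, differed by -1.003 (adjusted p = 0.183, block 0.0409), Lpl, the lipoprotein lipase, by -1.40 (adjusted p = 0.183, block 0.0621) and Lipe, a lipase that can free retinol from its esters, by -1.81 (adjusted p = 0.162, block 0.0338). Lpl and Lipe are also adipocyte markers of the fat score. Dgat1 split in the same way as the score at 15 months, with 5105, 3862, 1122 and 1387 on replicates 1 to 4. Its relation to the score was not tested. The second retinal dehydrogenase, Aldh1a2, was at 0.36 (SE 0.36, adjusted p = 0.587), and Cyp26b1, which breaks retinoic acid down, at 0.32 (SE 0.57, adjusted p = 0.771). The intervals of both, -0.41 to 1.12 and -0.89 to 1.53, hold changes in either direction. Adh4, Adh7, Rdh7, Rdh10 and Rdh16, dehydrogenases of the first oxidation step, and Rpe65 did not pass the filter.

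Of the other receptors, Rxrb differed by -0.34 (SE 0.17, adjusted p = 0.241) and Rxrg by -0.65 (SE 0.42, adjusted p = 0.365), with -0.27 on its second tested probe set. Rarb did not pass the filter. It had signals of 308, 367, 383 and 93.6 at 28 months, against 139, 122, 150.2 and 84.5 at 3 months, and replicate 4 at 28 months alone lay within the 3 month range. Among 10 tested nuclear receptors that pair with retinoid X receptors, 6 were higher and 4 lower, and 0 were called by limma or with the block. Those with the smallest p were Pparg, the adipocyte receptor, and Nr1h3, the oxysterol receptor LXR alpha. They were at -1.33 and -0.80 (limma adjusted p = 0.183 and 0.189, both under 0.05 before adjustment). Pparg is also an adipocyte marker of the fat score.

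Of 5 tested retinoic acid responsive genes, 3 were higher and 2 lower. Icam1 had signals of 1971, 1717, 1737 and 1519 at 28 months, against 953, 586, 932 and 767 at 3 months, and every old rat was above every young one. It rose by 1.10 (SE 0.23, limma adjusted p = 0.027), and its dimmer probe set was at 0.64 (adjusted p = 0.214). It did not pass once the fat score was a covariate (difference 0.83, adjusted p = 0.168), where 38 probe sets were called in all, against 67. Nor did it pass without replicate 1, 2 or 3 at 28 months or replicate 1 or 2 at 3 months, where the difference was 0.96 to 1.19 and 9 to 34 probe sets were called. Ucp1, the uncoupling protein by which brown fat makes heat and a gene of the fat score, was at -1.94 (adjusted p = 0.162, block 0.0365), and Plat, the tissue plasminogen activator, at 0.76 (adjusted p = 0.161, block 0.0496). The only tested coregulator, Med1, was at 0.28 (adjusted p = 0.606).

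**Figure D5:**
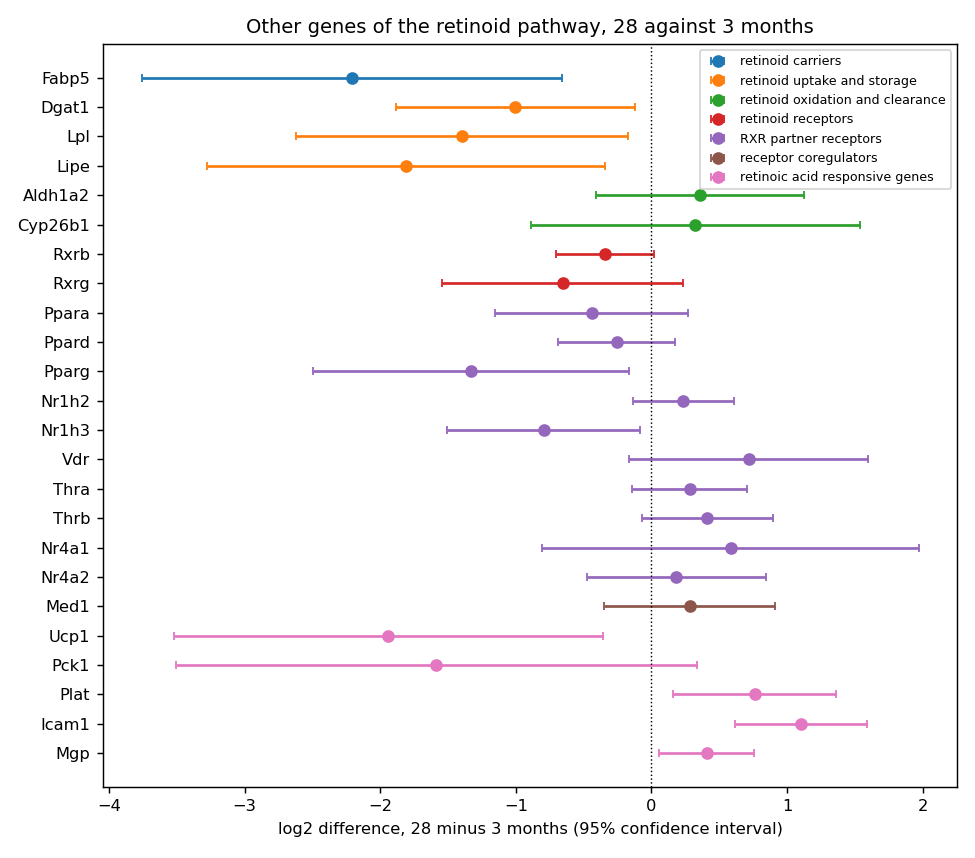
Log2 differences at 28 against 3 months (older minus younger) of the 24 tested pathway genes that are no members, with unadjusted 95% intervals, grouped by list. Icam1 at 1.10 was the only one past the adjusted threshold, and Fabp5 stood lowest at -2.21.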

How the data were processed

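The authors deposited 1 table of intensity values with 1 linear MAS5 signal per probe set and array, per the submitters' processing notes. Its version and settings, and a genome build, are not given here. Array records, also deposited (type "other", no measured score), gave the rat, chip lot, hybridisation run and day of each array. The signals were already scaled (mean 1000.0 on every array after 2% was trimmed at each end), so none was rescaled. Detection calls were not used. Precision is limited by the number of arrays.

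Values were analysed as log2(signal + 16). Probe sets with a mean log2 value under the 40th percentile (7.31) and the 59 controls were left out, which left 5250. Limma 3.58.1 (R 4.3.3; lmFit, eBayes with trend) fitted all 16 arrays with a mean for each age (12 residual degrees of freedom); p-values are 2-sided and Benjamini-Hochberg adjusted over 5250, with a threshold of 0.05. The fit was tested on simulated data. The fat score was compared between ages by exact permutation (R 4.3.3). Its correlations with the members were permuted with numpy 2.4.6, with ranks from scipy 1.17.1.

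Replicate numbers stand for 4 hybridisation runs with 1 array of each age, so they pair the arrays. Deviations from the age means had a median correlation of 0.171 over 24 pairs with the same number (from -0.31 to 0.628, 13 over 0.1) and of -0.034 over 72 other pairs of different age. The 16 arrays are of 16 rats and no 2 held the same values.

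The members, gene lists and comparisons were chosen with earlier results of these data known. All member probe sets are named, and all genes measured of the 4 core retinoid lists; of the other lists, those past the threshold or else the 2 with the smallest p; and the 4 probe sets most like the brightest of each member. A gene is shown by its brightest probe set. The lists of smooth muscle, endothelial, fibroblast, adipocyte, brown fat, macrophage, nerve and mesothelial markers are described in the closing section where not above. Promoters are those of RefSeq, GRCr8, matched by gene for 5 of 5 members. Alternatives were other pseudocounts and filters, quantile normalization, blocks for run, day and chip lot, single days, covariates, array weights and leaving out arrays; a note on the amount of cRNA, carried by 2 arrays at 15 months and 2 at 28 months, was added as a covariate after the data were seen.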

Additional observations from a re-analysis of the deposited data

Results flagged for a closer look

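In 2 of the 40 groups of 4 arrays that were checked (each member probe set and the fat score at each age), 1 array stood apart from the other 3 on the log2 scale (Dixon's test at 95%). By chance about 1 group in 20 does so. Rbp4 M10934_s_at had a signal of 5039 on 6 month replicate 4, while the other 3 rats of that age had 10814 to 12517 (gap of 0.839 of the range). On that array the fat score was 11.88, the lowest at 6 months. Rara AJ002940cds_s_at, a probe set under the filter, had a signal of 31.7 on 28 month replicate 4, while the other 3 rats had 280.0 to 362 (gap of 0.882 of the range). That array had a beta-actin ratio of 3.82, the highest of the 16, and its part in this value was not tested.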

How the results depend on the processing

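The difference of Crabp2 at 28 against 3 months was 3.38 on day 1 alone and 1.70 on day 2 alone, and 2.30 to 2.96 when any 1 array of these ages was left out. That of Rbp4 M10934_s_at was -0.26 with the fat score as a covariate and 0.30 with that and the replicate block, and -1.91 to -1.49 with 1 array left out. The count of members called at 28 against 3 months, 1 in the reported fit, was 3 with only the arrays of these ages, 2 with the replicate block, 3 on day 1, 0 on day 2, 4 with array weights, 0 with the fat score, 0 with it and the block, and 0 with the 60th percentile filter, which removes Crabp2. Calls over all probe sets moved too, at 10.2%, 12.2%, 13.3%, 0%, 14.3%, 0.724%, 0.114% and 1.74% in these settings, against 1.28% as reported. It was 0 to 1 with 1 array left out, and 0 without replicate 1, 2 or 3 at 28 months or replicate 1 or 2 at 3 months. On day 1 alone, with replicates 1 and 2 of each age, the 3 probe sets of the 1 gene Rbp4 were called at 28 against 15 months. The share of all probe sets called in that setting is not given here, so nothing is read from these calls. The count among the other pathway genes, also 1, was 7 with only these ages, 6 with the replicate block, 6 with day as a block, 10 on day 1, 0 on day 2, 2 with chip lot as a block, 9 with array weights, and 0 with the fat score (with or without the block) or with the note on cRNA. Over all probe sets 8.86% were called with day as a block, 6.13% with chip lot and 0.4% with the note, and the shares above apply to the rest. With 1 array left out it was 0 to 1. The fat score's difference was -1.93 to -1.36 with 1 array left out and did not pass without replicate 1, 2 or 4 at 28 months (3 against 4 arrays). In the other 4 comparisons that were tested, the replicate block changed no call of a member. The causes were not tested. The difference of Rbp4 M10934_s_at, which was not called, turned in sign in 1 of these settings; Crabp2 stayed positive in each.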

Other observations

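Markers of other cell types are given here for 28 against 3 months, beside those of fat cells above. Over all probe sets tested, 55.2% were higher, 1.28% were called by limma and 12.2% with the block. All 9 smooth muscle markers were higher (median 0.48, 0 called by limma or with the block), with summed signals of 255930 to 320821 at 28 months, against 170305 to 295954 at 3 months. Of 6 tested endothelial markers 4 were higher and 2 lower (median 0.11, 0 called, 1 with the block), and the summed signal of all 9 measured was 2235 to 4090 at 28 months, against 2654 to 3366 at 3 months. Of 8 fibroblast markers 4 were higher and 4 lower (1 called higher), with sums of 111247 to 146620.0 at 28 months, against 145820.2 to 151851 at 3 months. Of 3 tested macrophage markers 3 were lower (0 called), with sums of 4980 to 7927 at 28 months, against 5888 to 11044 at 3 months, over the 6 measured. Of 7 tested nerve and Schwann cell markers 5 were higher (1 called), with sums of 13334 to 15364 at 28 months, against 11948 to 15033 at 3 months, over the 12 measured. The 1 tested mesothelial and epithelial marker differed by 0.25 and was not called, and the 4 measured summed to 492 to 748 at 28 months, against 550.1 to 755 at 3 months. None of these markers was at 0 on all 4 arrays of an age, and their part in the values of the members was not tested.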
